A study of Mus musculus with 10 samples.

Results

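Immediate early genes are transcribed within minutes of a stimulus, without new protein synthesis. Fos and Jun encode partners of the dimeric transcription factor AP-1, Egr1 encodes a zinc finger transcription factor, and Btg2 encodes an antiproliferative protein of the BTG/TOB family that acts in messenger RNA deadenylation. In liver these genes are known to respond to growth factors, partial hepatectomy, ischaemia and the handling of tissue. Acetylation of lysine 27 on histone H3 (H3K27Ac) marks active promoters and enhancers, and dimethylation of lysine 4 (H3K4me2) marks promoters and enhancers more broadly.

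The loci of Fos, Jun, Egr1 and Btg2 were described as all peaks that overlapped 4 windows of 50 kb on the mouse build mm9, each set by its coordinates. They were chromosome 12, 86790000 to 86840000 for Fos, chromosome 4, 94690000 to 94740000 for Jun, chromosome 18, 35000000 to 35050000 for Egr1, and chromosome 1, 135950000 to 136000000 for Btg2. The windows held 200 of the 344928 peaks in the 9 lists of the series. All tissue was normal mouse liver, taken as full sections, with no strain, sex or age in the labels. The formalin-fixed, paraffin-embedded (FFPE) groups were FiTAc-seq for H3K27Ac, with overnight heating of sections in a buffer containing SDS at 50, 65 or 80 °C and sonication for 5 or 40 min, and FiT-seq, which used proteinase K, for H3K27Ac and for H3K4me2. These were set against 1 fresh frozen H3K27Ac library, called matched in the labels, from frozen sections crosslinked with formaldehyde. Only FiTAc-seq at 65 °C/5 min had 2 libraries, and nothing states whether these came from separate animals, so their spread may be technical. The FFPE input DNA was not analysed here.

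The 6 long H3K27Ac lists held between 38409 and 65332 peaks, the H3K4me2 list 11746, the FiT-seq H3K27Ac list 115 and the list of 80 °C/40 min 65. Each peak carries the authors' score, taken here to be a −log10 q-value, which depends on the depth and background of its own library. Sequencing depth is unknown, so scores were ranked only within a list. Ranks in lists of different lengths are not directly comparable. Scores and whole-list ranks of single peaks are printed below for each list, and do not measure a difference between libraries. Because every other condition had 1 library, no p-value compares conditions, and the standard deviation (SD) of the pair at 65 °C/5 min is the only replicate spread. How long the tissue was held before freezing or fixing is not stated. Handling, preservation, protocol and animal therefore cannot be told apart in any difference between FFPE and fresh frozen liver below. Exon, intron and promoter positions are not assigned, since no mm9 annotation was used, and liver marker genes were not checked for the same reason.

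To show the letters around the starts of these genes, the 250 bases before the transcription start were taken from the RefSeq promoters of build GRCm38.p6, which is not the build of the peaks. They lie at chr12:85473640-85473889 on the plus strand for Fos, chr4:95052223-95052472 on the minus strand for Jun and chr1:134079156-134079405 on the minus strand for Btg2. No entry was found for Egr1. Capitals mark matches on either strand to the TATA letters TATAAA, the CCAAT box, and the letters TGACGT as well as TGACNTCA.
Fos: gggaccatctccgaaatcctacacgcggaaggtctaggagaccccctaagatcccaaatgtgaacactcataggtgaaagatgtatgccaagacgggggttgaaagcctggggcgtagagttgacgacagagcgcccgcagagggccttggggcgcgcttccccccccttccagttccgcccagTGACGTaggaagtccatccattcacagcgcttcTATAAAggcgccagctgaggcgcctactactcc
Jun: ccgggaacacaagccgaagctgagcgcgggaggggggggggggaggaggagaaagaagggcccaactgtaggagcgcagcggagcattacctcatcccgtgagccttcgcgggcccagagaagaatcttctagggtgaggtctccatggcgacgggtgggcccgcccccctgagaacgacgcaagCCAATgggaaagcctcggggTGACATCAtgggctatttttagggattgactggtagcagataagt
Btg2: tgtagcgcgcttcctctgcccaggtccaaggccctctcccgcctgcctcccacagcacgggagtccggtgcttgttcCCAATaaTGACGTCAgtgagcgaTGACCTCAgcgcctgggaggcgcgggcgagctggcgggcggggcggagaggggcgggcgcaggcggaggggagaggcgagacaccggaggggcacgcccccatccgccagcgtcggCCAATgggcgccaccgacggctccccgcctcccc

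Of the 3 promoters, only Btg2 held the planned palindrome of the cyclic AMP response element within these 250 bases. The full palindrome TGACGTCA was in Btg2, 159 to 166 bases before the start, and in 1.55% of all 32851 promoters of the table. The shorter TGACGT, which the palindrome contains, was in Fos, 61 to 66 bases before the start, in Btg2 and in 6.47% of all promoters. TGACNTCA, which also takes in the palindrome, matched in Jun 38 to 45 bases before the start, at 2 places in Btg2, and in 7.49% of all promoters. These last 2 motifs were added after the sequences were seen, so their matches in these promoters only describe the letters. The share of all promoters with any of these motifs was not counted. TATAAA occurred in Fos, 28 to 33 bases before the start, and in 12.4% of promoters, and CCAAT occurred in Jun and Btg2 and in 33.8%. GGGCGG was found in all 3 and in 32.7% of promoters. GCGNGGGCG, the letters that Egr1 protein binds, was found in Btg2 and in 4.70% of promoters. TGANTCA and the CArG box, the letters of the serum response element, were not in the 250 bases of these 3 promoters. Of all promoters, 6.75% and 1.47% held them. Bases farther from the start were not searched, and Egr1 had no entry. Of 25 other immediate early genes, 18 had an entry: 16 of them held GGGCGG, 8 held GCGNGGGCG, 7 held CCAAT, 5 held TGACGT, 3 held TATAAA, 2 held the CArG box, 2 held TGACNTCA, 1 held TGACGTCA and 0 held TGANTCA.

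All 4 loci held H3K27Ac peaks in fresh frozen liver and in each of the 5 long FiTAc-seq lists. FiTAc-seq gave 33 peaks in the windows at 50 °C/40 min, 31 at 50 °C/5 min, 28 at 65 °C/40 min, and 38 and 36 in the pair at 65 °C/5 min, against 28 in fresh frozen liver. The whole genome was cut into 52770 windows of 50 kb to give a background. Of these, 25.6%, 19.1%, 25.8%, 26.9% and 25.9% held a peak in the FiTAc-seq lists, in the same order, and 30.4% in fresh frozen liver. No peak was listed at any of the 4 loci at 80 °C/40 min or by FiT-seq for H3K27Ac, whose lists had a peak in 0.104% and 0.191% of windows.

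**Figure D1:**
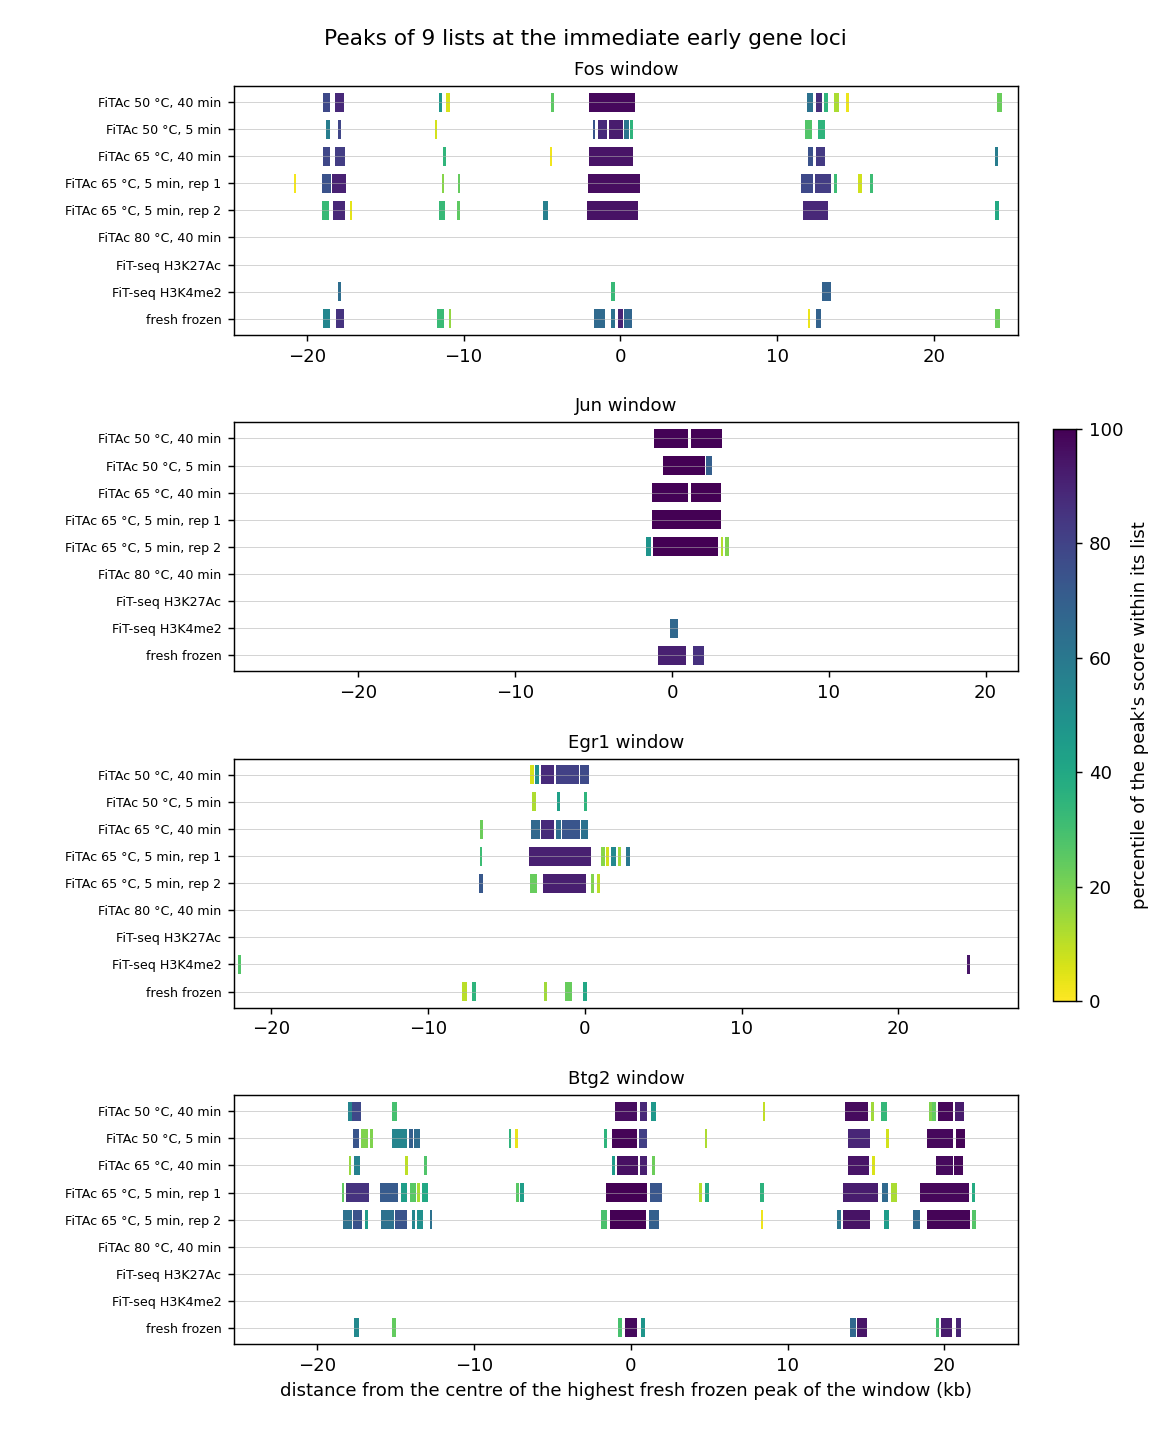
Peaks of the 9 lists in the 4 windows. The horizontal axis is the distance in kb from the centre of the highest fresh frozen peak of each window, each row is a library, and colour gives the percentile of a peak's score within its list. The main groups of peaks in the FiTAc-seq lists and in fresh frozen liver lie at the same places. In bp, the highest peaks at 65 °C/5 min are wider than those of fresh frozen liver.

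Jun, a subunit of AP-1, had the simplest locus, with a single block of H3K27Ac. At 65 °C/5 min 1 peak spanned it, of 4401 bp in the first library and 4160 bp in the second. Fresh frozen liver had a peak of 1793 bp and a peak of 707 bp within the block. Among the 5000 highest peaks of the first and second libraries of this pair, 61.3% and 59.8% overlapped 2 or more fresh frozen peaks. The second library also had a peak of 159 bp at the edge of the block, and peaks of 318 and 261 bp beside it. Both lists of 40 min split it into 2 peaks, which measured 2158 and 1986 bp at 50 °C and 1893 and 2259 bp at 65 °C. The 50 °C/5 min list had a peak of 2707 bp and a small one of 391 bp. The block lay at chromosome 4, 94716681 to 94721221, over all lists. Within its own list, the highest Jun peak was wider than 98.8% of peaks in each library of the pair, and than 99.8% in fresh frozen liver.

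The Jun block was among the highest peaks of each of the 5 long FiTAc-seq lists. Its highest peak ranked 321 of 65332 at 50 °C/40 min, 120 of 38409 at 50 °C/5 min, and 79 of 64146 at 65 °C/40 min. It ranked 61 of 60244 and 196 of 56632 in the pair, against 4188 of 48239 in fresh frozen liver. The −log10 q-values of these peaks were 89.3, 30.1, 116, 134 and 89.7 in the FiTAc-seq lists, in the same order, against 37.8 in fresh frozen liver. The flanking genes that code for protein in the RefSeq annotation of GRCm38.p6 are Mysm1 and Fggy.

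Fos, the partner of Jun in AP-1, had 3 main groups of peaks. The central group at chromosome 12, 86812533 to 86815891, was 1 peak of 2955 bp at 50 °C/40 min, 2767 bp at 65 °C/40 min, and 3325 and 3264 bp in the pair, where fresh frozen liver had 4 separate peaks of 314 to 733 bp. At 50 °C/5 min the group was cut into 5 peaks of 155 to 869 bp. Among the 5000 highest peaks of the first and second libraries of the pair, 7.42% and 6.87% overlapped 4 or more fresh frozen peaks. The shares were 3.22% at 50 °C/40 min and 3.67% at 65 °C/40 min.

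The central Fos peak ranked 1438 of 65332 at 50 °C/40 min, 2675 of 38409 at 50 °C/5 min, and 3319 of 64146 at 65 °C/40 min. It ranked 1918 of 60244 and 2735 of 56632 in the pair, against 4754 of 48239 in fresh frozen liver. Its −log10 q-values were 64.2, 14.0, 48.2, 61.8 and 43.0 in the FiTAc-seq lists, in that order, against 35.6 in fresh frozen liver. At 50 °C/5 min and in fresh frozen liver these values belong to the highest peak of the group alone, of 869 and 314 bp. The second group lay on the low-coordinate side. Its main peak, at chromosome 12, 86796490 to 86796993 in fresh frozen liver, scored 31.2, 9.21, 21.7, 36.6 and 27.2 in the FiTAc-seq lists, in that order, against 28.1 in fresh frozen liver. The third group lay at chromosome 12, 86826185 to 86828046, on the other side, and its highest peak scored 28.5, 4.75, 22.9, 20.6 and 26.8, against 16.0. Each of these groups had a peak in all 6 lists. From low to high coordinate, the 11 fresh frozen peaks of the window scored 10.8, 28.1, 6.80, 5.09, 14.5, 13.4, 35.6, 15.3, 3.51, 16.0 and 5.74. Tmed10 and Jdp2, which encodes a repressor of AP-1, flank Fos in the RefSeq annotation.

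By its highest score, Egr1 had the weakest H3K27Ac of the 4 loci in every one of the 6 long lists. By length under peaks it was also lowest, except in the first library of the pair, with 5319 bp against 4401 bp at Jun. It had more peaks than Jun in every one of these lists. In the first library of the pair a single peak of 3998 bp with a score of 37.6 ranked 5224 of 60244, and in the second a peak of 2783 bp with a score of 32.7 ranked 4753 of 56632. The lists of 40 min had narrower peaks here, of 884 bp with a score of 30.7 and rank 7565 at 50 °C, and of 867 bp with a score of 30.4 and rank 7367 at 65 °C. At 50 °C/5 min the locus had 3 peaks of 187 to 248 bp, and the highest, with a score of 5.41, ranked 21091 of 38409. In fresh frozen liver the 5 peaks scored 4.52, 7.26, 4.83, 5.76 and 8.02 from low to high coordinate and measured 175 to 464 bp, and the highest ranked 28744 of 48239.

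These Egr1 peaks shared the stretch at chromosome 18, 35018790 to 35022975. Peaks of 4 of the 5 long FiTAc-seq lists met 3 of the 5 fresh frozen peaks there, and the 50 °C/5 min list met 1. The remaining 2 fresh frozen peaks, at 35014549 to 35014829 and 35015152 to 35015448, overlapped no peak of the 5 long FiTAc-seq lists. Both were low in the fresh frozen list, with scores of 4.52 and 7.26 at percentiles 10.3 and 35.1. The score of 7.26 was above 4.83 and 5.76, those of fresh frozen peaks that 4 of the 5 lists met. Both libraries of the pair and the 65 °C/40 min list had a peak close by, within 35015599 to 35015869, which did not reach either of them. Reep2 and Etf1 flank Egr1 in the RefSeq annotation.

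Btg2 had the most peaks of the 4 loci, and the greatest summed length under them, in each of the 5 long FiTAc-seq lists. It held 14 peaks at 50 °C/40 min, 16 at 50 °C/5 min, 12 at 65 °C/40 min, and 19 and 18 in the pair, against 10 in fresh frozen liver, where Fos held 11. The group at chromosome 1, 135973434 to 135976341, had the highest peak of the window in both libraries of the pair, with scores of 109 and 91.5 and ranks of 197 and 167, and at 50 °C/5 min, with a score of 25.4 and rank 296. It also had the highest in fresh frozen liver, with a score of 57.8 and rank 1192. In both lists of 40 min the highest peak lay instead in the group at 135993293 to 135996922, with scores of 69.1 at 50 °C and 69.3 at 65 °C. The group near the middle scored 56.2 and 53.8 in those lists. Another strong group lay at 135988816 to 135991088, with scores of 59.4, 12.4, 48.2, 41.8 and 43.0 in the FiTAc-seq lists, in the order of the peak counts, against 45.4 in fresh frozen liver. From low to high coordinate, the 10 fresh frozen peaks scored 10.5, 5.87, 6.54, 57.8, 9.32, 14.8, 45.4, 6.58, 41.1 and 35.7. Fmod and Chit1 flank Btg2 in the RefSeq annotation, and which of the groups belong to a neighbour was not determined.

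The windows were ranked within each list to compare the loci between FFPE and fresh frozen liver. Ranks were taken over the same 9394 windows, those with a peak in all 6 long H3K27Ac lists, and a percentile is the share of them with a lower highest score, with ties split evenly. The Jun window stood at 96.4 at 50 °C/40 min, 98.7 at 50 °C/5 min, 99.1 at 65 °C/40 min, and 99.3 and 97.7 in the pair, against 62.1 in fresh frozen liver. The Egr1 window stood at 45.2, 16.8, 46.0, 53.5 and 57.5, in the same order, against 4.76. The Fos window stood at 85.4, 75.7, 70.2, 80.1 and 73.2, against 57.9. For these 3 loci all 5 FiTAc-seq libraries were above fresh frozen liver. The Btg2 window stood at 88.8, 96.9, 87.8, 97.7 and 98.1, against 88.0, so that the libraries of 5 min were higher and those of 40 min lay within 1 point of fresh frozen liver.

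**Figure D2:**
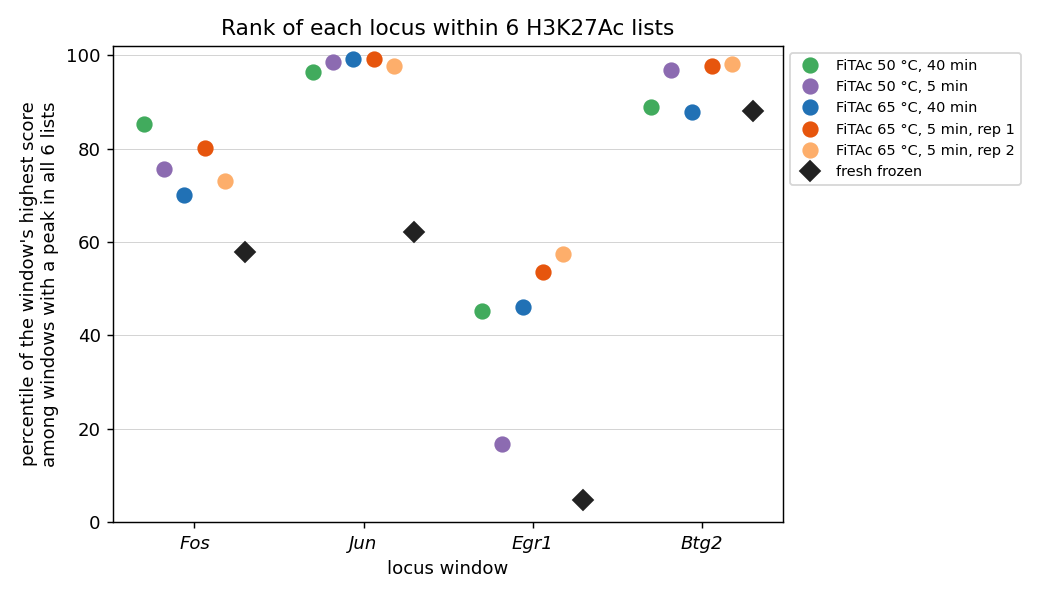
Percentile of each locus window among the 9394 windows with a peak in all 6 lists (vertical axis), by locus and library. Circles are FiTAc-seq libraries and diamonds are fresh frozen liver. The Jun circles lie between 96.4 and 99.3, above the diamond at 62.1, and the Egr1 circles lie between 16.8 and 57.5, above the diamond at 4.76.

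In the replicated condition, 65 °C/5 min, the order of the loci was Jun, Btg2, Fos and Egr1, with percentiles of 98.5 ± 1.10, 97.9 ± 0.241, 76.6 ± 4.90 and 55.5 ± 2.82 (SD, n = 2). Jun and Btg2 differed by less than the SD of Jun. In fresh frozen liver the order was Btg2, Jun, Fos and Egr1. The difference between FFPE and fresh frozen liver was 50.8 ± 2.82 percentile points for Egr1, 36.4 ± 1.10 for Jun, 18.8 ± 4.90 for Fos and 9.89 ± 0.241 for Btg2 (SD, n = 2). Over all shared windows the median difference was -0.913 points. A locus was called higher when both libraries of the pair exceeded fresh frozen liver by over 10 points, which held for 3 of the 4 loci and for 24.3% of all shared windows. None of the 4 was called lower, as were 26.2% of windows. Btg2, with differences of 9.72 and 10.1 points in the first and second libraries, lay at that limit. The 5 FiTAc-seq libraries were all set against the same fresh frozen library, so these differences share its error.

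**Figure D3:**
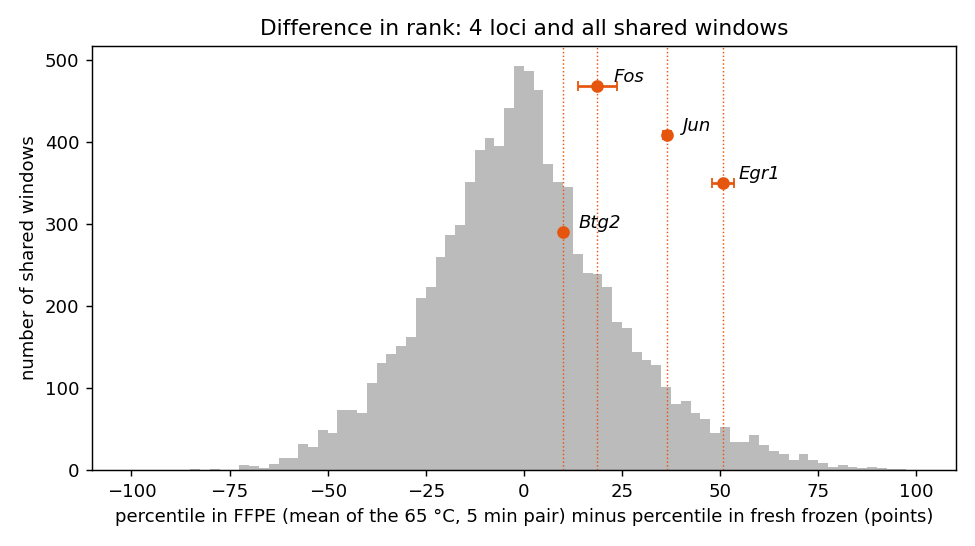
Histogram of the percentile in FFPE liver (mean of the pair at 65 °C/5 min) minus that in fresh frozen liver, in points, over 9394 shared windows. Orange points with bars give the 4 loci with the SD of the pair; all 4 lie above 0, and Egr1 is farthest at 50.8 points.

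A window that is low in one list can mainly move up in another, so each locus was also set against windows within 5 points of its own percentile in fresh frozen liver, a background added after the data were seen. Jun exceeded 98.2% of 939 such windows, Btg2 95.5% of 940, Egr1 95.3% of 917 and Fos 77.2% of 940. The share of these windows called higher was 24.3% for Jun, 2.87% for Btg2, 30.4% for Egr1 and 27.9% for Fos. The measure of the window mattered. When windows were ranked by the sum of score times width instead of by their highest peak, the difference was 57.8 points for Egr1 but 3.10 for Jun, 5.22 for Fos and -0.979 for Btg2, so Egr1 alone was called.

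More of each window lay under peaks in FFPE liver at 65 °C/5 min than in fresh frozen liver. At Btg2 peaks covered 13802 ± 1541 bp in the pair (SD, n = 2) and 3995 bp in fresh frozen liver, a ratio of 3.45 ± 0.386. At Egr1 they covered 4578 ± 1048 bp in the pair and 1447 bp in fresh frozen liver, a ratio of 3.16 ± 0.724. The ratios were 1.86 ± 0.141 at Jun, with 4650 ± 351 bp in the pair and 2500 bp in fresh frozen liver, and 1.77 ± 0.0468 at Fos, with 7419 ± 197 bp in the pair and 4202 bp in fresh frozen liver. All 4 differences exceeded the SD of the pair, which does not include the unknown spread of the 1 fresh frozen library. The median ratio over all shared windows was 1.91, so Jun and Fos lay near or below it, and Btg2 exceeded 85.0% and 82.4% of windows in the first and second libraries. Egr1 exceeded 84.3% and 74.6%.

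**Figure D4:**
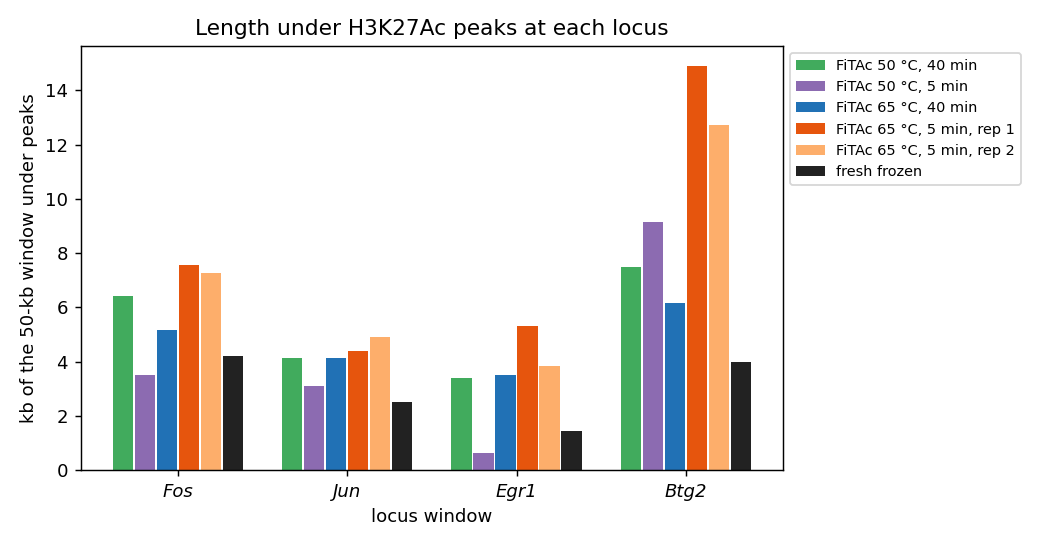
Summed length under H3K27Ac peaks in each 50-kb window, in kb, by locus and library; fresh frozen liver is the last bar of each group. Btg2 has the greatest length, summed over its peaks, in each of the 5 FiTAc-seq lists drawn, from 6150 bp at 65 °C/40 min to 14892 bp in the first library at 65 °C/5 min.

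Most fresh frozen peaks at these loci were found again in FFPE tissue. Of the 28, 26 overlapped a peak at 50 °C/40 min by at least 1 bp, or 92.9% (exact 95% interval 76.5 to 99.1), where 73.2% of all fresh frozen peaks did. At 50 °C/5 min 22 were met, or 78.6% (59.0 to 91.7), with a background of 43.7%. At 65 °C/40 min 24 were met, or 85.7% (67.3 to 95.97), with a background of 72%. The pair met 24 and 25, or 87.5% ± 2.53 (SD, n = 2), with backgrounds of 73% and 70.2%. The background lay below the interval at 50 °C/40 min, at 50 °C/5 min and in the second library of the pair (71.8 to 97.7), and within it in the other 2 lists. These intervals cover counting error only, and peaks of a locus are not independent.

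All 5 long FiTAc-seq lists met 21 of the 28 peaks, with a background of 41.1%, and none met 2, with a background of 16.6%. Both of these lay at Egr1. Both Jun peaks were met in every long list, and the 10 Btg2 peaks in all but the 65 °C/40 min list, which met 9. Of the 11 Fos peaks, 11 were met at 50 °C/40 min, 9 at 50 °C/5 min, 10 at 65 °C/40 min, and 9 and 10 in the pair. Of the 5 Egr1 peaks, 3 were met in 4 of the lists and 1 at 50 °C/5 min. The share depended on how high the peak was in fresh frozen liver. Of the 28 peaks, 6 were among the 5000 highest of the list, 3 came next down to rank 15000 and 8 next down to rank 30000, and these were met in every long FiTAc-seq list. Over all fresh frozen peaks of the 5000 highest the shares met were 98.6%, 92%, 98.8%, 98.7% and 98.5% (50 °C/40 min, 50 °C/5 min, 65 °C/40 min and the pair). Down to rank 15000 they were 94%, 67.4%, 93.8%, 93.2% and 91.5% in the same order, and down to rank 30000 they were 76.5%, 38.5%, 75.5%, 75.2% and 72.4%. The missed peaks came from the 11 of lower rank. Of those 11, 9 were met at 50 °C/40 min, 5 at 50 °C/5 min, 7 at 65 °C/40 min, and 7 and 8 in the pair. The backgrounds over all peaks of those ranks were 52.1%, 21.8%, 49.9%, 53.1% and 48.9%.

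In the other direction, the pair had many small peaks that no fresh frozen peak met. Of the 38 peaks at the loci in the first library 25 had no fresh frozen peak, and of the 36 in the second 22, a mean of 63.5% ± 3.31 (SD, n = 2), with backgrounds of 55.7% and 53.6%. Both backgrounds lay within the exact intervals of the loci, 48.6 to 80.4 in the first library and 43.5 to 76.9 in the second. This proportion was 39.4% (22.9 to 57.9) at 50 °C/40 min, 38.7% (21.9 to 57.8) at 50 °C/5 min, and 35.7% (18.6 to 55.9) at 65 °C/40 min. The backgrounds of these 3 lists were 50.6%, 44.3% and 50.4%, within those intervals. These proportions depended on how peaks were delimited and counted. With peaks merged within 500 bp they were 37.2% in the pair and 14.3% at 50 °C/40 min. With lists of equal length the value at 50 °C/40 min was 25.0%, and at 50 °C/5 min it was 22.2% with a score of at least 5 and 58.1% with the midpoint rule. In the first and second libraries of the pair these peaks had median scores of 5.66 and 6.63 and median widths of 202 and 261.5 bp. The peaks of the pair that met a fresh frozen peak had median scores of 36.6 and 27.03 and median widths of 1452 and 1211.5 bp. The highest peak without a fresh frozen peak scored 13.4 in the first library, at Btg2, and 12.5 in the second, at Egr1.

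**Figure D5:**
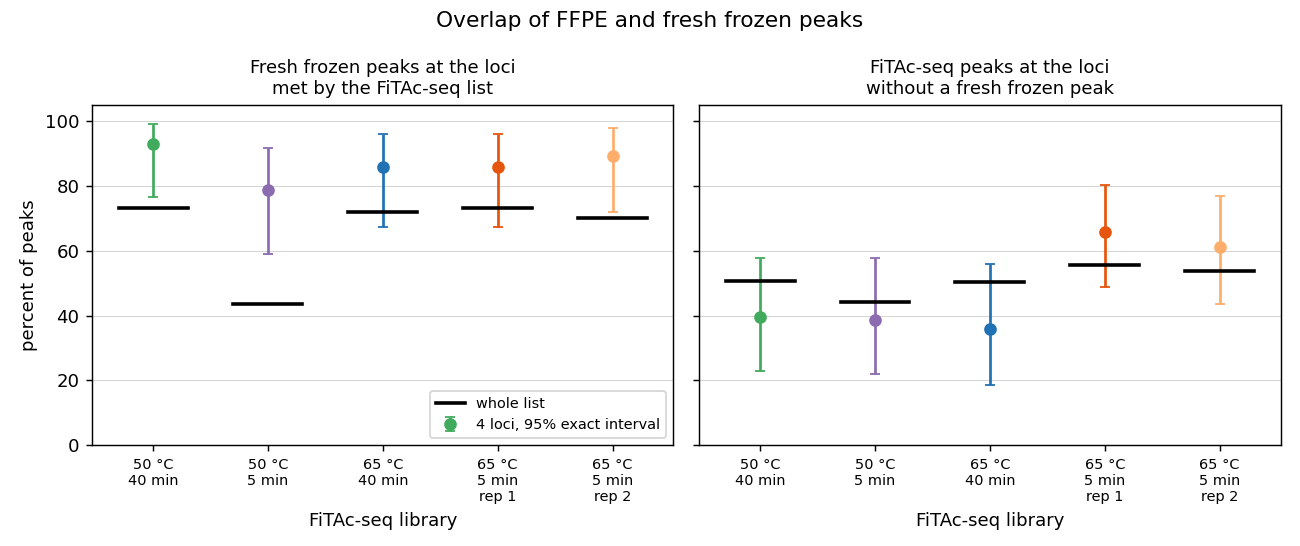
Share of fresh frozen peaks at the 4 loci that overlapped a FiTAc-seq peak (left) and share of FiTAc-seq peaks at the 4 loci without a fresh frozen peak (right), in percent, for 5 libraries. Points carry exact 95% intervals and black lines give the share over the whole list; on the left all 5 points lie above their line.

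Joined over the 6 long lists, the peaks at the loci made 48 sites. Overlapping or touching peaks were chained, so lists that share a site need not have peaks there that overlap each other. At the Btg2 site 135959335 to 135961067, the 65 °C/40 min peak did not overlap the fresh frozen peak. Fresh frozen liver and all 5 FiTAc-seq lists had a peak in 12 of the 48 sites, or 25.0%. Of the 84496 sites of the genome, 16.7% were so shared. Of these 12, 5 lay at Fos, 5 at Btg2, 1 at Jun and 1 at Egr1. Fresh frozen liver and 1 to 4 FiTAc-seq lists shared 2 sites, both at Fos, or 4.17%, with a background of 16.7%. Sites of fresh frozen liver alone numbered 2, or 4.17%, both at Egr1, with a background of 9.47%. Another 7 sites had no fresh frozen peak but a peak in both libraries of the pair and in 2 to 4 FiTAc-seq lists. They made up 14.6%, with a background of 10%, and 5 of them lay at Btg2. No site lacked a fresh frozen peak and had a peak in all 5 FiTAc-seq lists, a class of 2.3% in the genome. The remaining FiTAc-seq sites without a fresh frozen peak numbered 25, or 52.1%, with a background of 44.8%.

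Within the replicate pair, 24 of the 38 peaks of the first library overlapped a peak of the second, or 63.2% (46.0 to 78.2), with a background of 67.5%. Of the 36 peaks of the second library 27 overlapped a peak of the first, or 75.0% (57.8 to 87.9), with a background of 77.1%. Of the peaks found in only one of them, the highest scored 8.99 in the first library, at Egr1, and 9.61 in the second, at Btg2. These stood at percentiles 59.9 and 63.2 of all peaks of their lists. Egr1 was the locus with the lowest agreement in the first library, with 2 of 7 peaks met, and Btg2 had 14 of 19. In the second library Jun was lowest, with 2 of 4 peaks met, and Egr1 had 3 of 5.

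The length under peaks was greater after 40 min than after 5 min of sonication at 50 °C, and smaller at 65 °C. At 50 °C the 40 min list covered 21426 bp over the 4 windows and the 5 min list 16386 bp, while at 65 °C the 40 min list covered 18975 bp and the 5 min pair 30449 ± 2434 bp (SD, n = 2). Over whole lists, peaks covered 36.3 Mb after 40 min and 17.2 Mb after 5 min at 50 °C, and 34.6 Mb after 40 min and 42.2 ± 2.83 Mb after 5 min at 65 °C. By percentile among shared windows, 40 minus 5 min was 28.4 points for Egr1 at 50 °C and -9.55 points at 65 °C. For Btg2 it was -8.10 points at 50 °C and -10.1 points at 65 °C, where the SD of the pair was 0.241. For Fos it was 9.73 points at 50 °C and -6.45 points at 65 °C, with an SD of 4.90. For Jun it was -2.30 points at 50 °C and 0.599 points at 65 °C, with an SD of 1.10.

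The largest difference between the libraries of 65 °C and 50 °C was at Egr1 after 5 min. There the percentile was 55.5 ± 2.82 at 65 °C (SD, n = 2) and 16.8 at 50 °C, a difference of 38.8 points. For Fos, Jun and Btg2 after 5 min, 65 °C minus 50 °C was 0.977, -0.141 and 0.979 points. The Fos and Jun values were smaller than the SD of the pair, and that of Btg2 was not. The 50 °C/5 min value rests on 1 library of unknown spread, so the SD of the pair cannot decide these differences. After 40 min, 65 °C minus 50 °C was -15.2 points for Fos, 2.76 for Jun, 0.798 for Egr1 and -1.001 for Btg2. No condition of 40 min had a second library.

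H3K4me2 was listed at 3 of the 4 windows, with 6 peaks in all, and 14.8% of all windows of the genome held one. That background includes windows without H3K27Ac. Of windows with at least as many fresh frozen peaks as Fos, Jun and Egr1, 47.3%, 52.4% and 46.6% held no H3K4me2 peak. Of those with a fresh frozen score at least as high, 24.2%, 23.3% and 47.7% held none. At Fos, 3 H3K4me2 peaks with scores of 4.69 to 6.63 each met a peak of all 5 long FiTAc-seq lists, and 2 of them met a fresh frozen peak. They lay in the 3 groups described above. At Jun a single H3K4me2 peak of 517 bp with a score of 6.47, at chromosome 4, 94717780 to 94718296, lay within the block of H3K27Ac. At Egr1 the 2 H3K4me2 peaks, with scores of 10.5 and 4.48, lay near the edges of the window at 35046733 to 35046964 and 35000277 to 35000457, and no H3K27Ac list had a peak there. Of all H3K4me2 peaks, 84.8% met one of the 6 long H3K27Ac lists, and at these loci 4 of 6 did. By list, the shares of all H3K4me2 peaks met were 69.3%, 48.4%, 68.2%, 76.3% and 73.1% in FiTAc-seq (50 °C/40 min, 50 °C/5 min, 65 °C/40 min and the pair), against 70% in fresh frozen liver.

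Btg2 had no H3K4me2 peak, and the nearest lay 259 kb outside its window. Of the 327 windows of the genome with at least 10 fresh frozen H3K27Ac peaks, as Btg2 had, 48.3% held no H3K4me2 peak. Of the 1156 with a fresh frozen score at least as high as that of Btg2, 20.7% held none. The H3K4me2 list is that of 1 library with 11746 peaks, and its depth is unknown, so the mark at Btg2 was not detected rather than shown to be absent.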

How the data were processed

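The authors deposited 1 peak list for each ChIP library. Tools named in the submitters' processing notes are the aligner BWA and the peak caller MACS2, with the build mm9. Software versions, calling thresholds and the control are not given in the sources used here. One of 2 library kits was used for each library, per the labels' protocols, without saying which. The deposited score was taken to be a −log10 q-value from its range, since most lists stop just above 2. It is the authors' own value and depends on depth and background.

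Starts are 1-based, and the other chromosomes than 1 to 19, X and Y were left out. The 4 loci, the gene lists and the comparisons were chosen with earlier results of these data known. The text names the 4 genes and, at each locus, the highest peak of each list. Overlap meant at least 1 bp, windows of the genome measured 50000 bp, and intervals are exact Clopper-Pearson at 95%. Alternatives were a score of at least 5, merging within 500 bp, an overlap of 50% of the shorter peak, the midpoint rule, the central part of each window, lists of equal length, a shifted tiling, score times width, and each library of the pair alone. Of the 25 other immediate early genes only promoters were examined. Overlap, merging and tiling functions were tested on simulated lists and returned the values they were made with. Scripts ran in Python 3.11.15. They used numpy 2.4.6 and pandas 2.3.3. Intervals came from scipy 1.17.1, and figures from matplotlib 3.10.9. The motifs TGACGT and TGACNTCA and the background of windows of like percentile were added after the data were seen. No test between conditions was made.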

Additional observations from a re-analysis of the deposited data

Results flagged for a closer look

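Some effects of 40 against 5 min of sonication at these loci ran in opposite directions at 50 °C and 65 °C, with both 5 min libraries of 65 °C on the same side. The difference between the temperatures was not tested: only 65 °C/5 min had a second library. For Fos the percentile among shared windows, 40 minus 5 min, was 9.73 points at 50 °C against -6.45 points at 65 °C. For Egr1 it was 28.4 at 50 °C against -9.55 at 65 °C. The number of peaks at the 4 loci changed by 2 at 50 °C and by -9 at 65 °C, and the length under peaks by 5040 bp at 50 °C and by -11474 bp at 65 °C. The share of FFPE peaks without a fresh frozen peak changed by 0.684 percentage points at 50 °C and by -27.7 points at 65 °C. The contrast in this share was lost under 4 alternatives, where the share was lower after 40 min at 50 °C too: 14.3% after 40 min and 29.4% after 5 min with merged peaks, 25.0% and 41.9% with lists of equal length, 29.4% and 36.8% in the central part of the windows, and 51.5% and 58.1% with the midpoint rule. Over whole lists the length under peaks also went opposite ways, by 19.2 Mb at 50 °C and by -7.57 Mb at 65 °C, while the number of peaks was higher after 40 min at both temperatures, by 26923 at 50 °C and by 5708 at 65 °C. The part of these in the values at the loci was not tested.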

How the results depend on the processing

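Alternatives gave 81 values for the overlaps and rank differences. Of these, 66 kept their side of the threshold or moved by less than the replicate spread or interval. Some of them could not have come out otherwise, so the count is not a measure of stability. Leaving out 1 library of the pair moves their mean by less than their SD, and cannot undo a call that needed both. For conditions of 1 library the intervals are wide, and at 50 °C/5 min 38.7% and 22.2% counted as alike. Ranking windows by score times width took the calls from Fos (5.22 points) and Jun (3.10 points) and turned Btg2 to -0.979 points, while Egr1 was at 57.8 points. Btg2 passed the limit of 10 points with a score of at least 5, at 11.6 points. Without 1 library of the pair, the differences ranged from 15.3 to 22.2 points for Fos, 35.7 to 37.2 for Jun, 48.8 to 52.8 for Egr1 and 9.72 to 10.1 for Btg2, where the value of 10.1 passed the limit. Recovery ranged from 85.7% to 89.3% and the share without a fresh frozen peak from 61.1% to 65.8%. At 65 °C and 5 min, recovery was 83.9% with the midpoint rule, 83.3% in the central part of the windows and 91.7% with lists of 38409 peaks. The share of its peaks without a fresh frozen peak was 56.9% with a score of at least 5, 37.2% after merging, 77.0% with the midpoint rule and 48.1% with lists of equal length. That share was 14.3% at 50 °C and 40 min after merging and 58.1% at 50 °C and 5 min with the midpoint rule. Agreement within the pair was 79.1% after merging, against 69.1%. Percentiles by highest score among all windows with a peak were recomputed only for the pair and fresh frozen liver. Their widest range over the settings was 6.25 points, from 14.8 to 21.0 for Egr1 in fresh frozen liver. The cause of these changes was not tested. No paired analysis was possible because only 1 condition had numbered replicates. Depth is unknown, so a peak that is not listed may lie under the limit of its library.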
